A study of Mus musculus with 6 samples.

Results

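The genes described here are those of the unfolded protein response and the heat shock response, 36 genes listed by symbol, of which 34 were measured among 16663 tested genes. They encode chaperones, protein disulfide isomerases, factors of protein degradation, and the sensors and transcription factors that control them. A gene was measured when a probeset of the array carried its symbol and no other, and among several such probesets the brightest by its mean over the 6 arrays was taken. All 34 lay above the signal filter, a mean of 6 on the log2 scale. The other 2 members were not analysed here. Hsf1, the main transcription factor of the heat shock response, had no probeset under its symbol in the annotation used. Hspa1b was listed only on a probeset that carried more than 1 gene symbol.

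The samples were hypothalamic RNA of female C57Bl/6J mice aged 21 weeks. The CGP group was the offspring of mothers given CGP 39551, an NMDA receptor antagonist, by mouth at 5 mg/kg during pregnancy and up to the end of weaning, and the CON group was control mice of the same strain, sex and age. Each group had 3 arrays of RNA pooled from 18 mice. The labels do not say whether the 3 arrays shared 1 pool, so the p-values speak only of the scatter among arrays, and that scatter may be technical.

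In the unfolded protein response, misfolded protein in the lumen of the endoplasmic reticulum (ER) is sensed by 3 membrane proteins, the products of Ern1, Eif2ak3 and Atf6. These act through the transcription factors made from Xbp1, Atf4 and Atf6 itself, and raise the genes of ER chaperones and of ER-associated degradation. In the heat shock response, misfolded protein in the cytosol frees heat shock factors that bind the promoters of cytosolic and mitochondrial chaperone genes. Hypothalamic neurons that secrete peptides pass large amounts of precursor protein through the ER, and ER stress in the hypothalamus is known for its link to leptin resistance.

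Many ER members carry in their promoters the ER stress response element, through which Atf6 acts, and its sites are shown because several of the genes described below share it. Promoter windows of 300 bases, 250 before and 50 after the transcription start, were found in RefSeq (GRCm38.p6) for 31 of the 36 members. The element was searched on both strands as CCAAT, then 9 bases of any kind, then CCACG. It was found in 7 of the 31 member genes (22.6%), against 37 of 27025 genes with a window (0.137%). All 7 encode residents of the ER, and they made up 7 of the 12 ER residents with a window. The 8 sites, with 5 bases on each side and the fixed letters of the element in capitals, read on the strand of the element as follows.
Hspa5, chr2:34772020-34772048: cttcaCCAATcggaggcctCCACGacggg
Pdia6, chr12:17266486-17266514: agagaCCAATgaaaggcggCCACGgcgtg
Dnajc3, chr14:118937822-118937850: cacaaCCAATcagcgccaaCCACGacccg
Canx, chr11:50325795-50325823: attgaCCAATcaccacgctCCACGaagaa
Creld2, chr15:88819515-88819543: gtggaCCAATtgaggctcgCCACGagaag
Calr, chr8:84847070-84847098: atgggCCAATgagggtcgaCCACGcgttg
Hsp90b1, chr10:86705633-86705661: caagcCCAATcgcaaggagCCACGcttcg
Hsp90b1, chr10:86705528-86705556: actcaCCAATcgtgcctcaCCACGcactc

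The elements of Hspa5, Pdia6, Dnajc3 and Canx and the first of Hsp90b1 lay on the strand of the gene, and those of Calr and Creld2 and the second of Hsp90b1 on the opposite strand. They began 65 bases before the start in Hspa5, 98 in Pdia6, 105 in Dnajc3 and 145 in Canx. The 250 bases before the start of Hspa5 (chr2:34771840-34772089, plus strand) are shown in full, since Hspa5 is the reference gene of the response. They held CCAAT 4 times, counted on both strands, but only 1 complete element, in capitals.
Hspa5: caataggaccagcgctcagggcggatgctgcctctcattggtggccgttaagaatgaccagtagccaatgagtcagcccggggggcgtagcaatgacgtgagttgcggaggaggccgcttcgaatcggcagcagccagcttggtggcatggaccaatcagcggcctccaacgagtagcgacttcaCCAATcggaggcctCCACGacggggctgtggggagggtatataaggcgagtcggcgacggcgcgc

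The other elements were found in fewer members. A second form of the ER element, ATTGG, then 1 base of any kind, then CCACG, was in Herpud1 and Dnajb11, 2 of 31 members (6.45%) against 0.0444% of all genes. The amino acid response element TGATGNAA, which Atf4 binds together with a partner, was in Chac1, Herpud1 and Trib3, 3 of 31 (9.68%) against 4.51% of all genes. The letters TGACGTGG, bound by the Xbp1 protein, were in 0 of 31 members and in 0.714% of all genes. The heat shock element, searched as GAA, TTC and GAA with 2 bases of any kind between them, was in Hspd1, Hspe1 and Hsph1, 3 of 31 (9.68%) against 0.662%. Hspd1 and Hspe1 encode the mitochondrial chaperonin and its lid, and their windows overlap because the genes lie head to head, so that they share the same letters. The match in Hsph1 lay after its start, on the opposite strand. The fixed letters are in capitals.
Hspe1, chr1:55088059-55088081: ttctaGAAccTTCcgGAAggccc
Hsph1, chr5:149636283-149636305: gaggaGAActTTCcaGAAtctgc
A match is a description of the letters and does not show that a factor binds there.

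No member passed the test between CGP and CON. At an adjusted p under 0.05 (limma with Benjamini-Hochberg adjustment over all 18239 tested probesets), 0 of the 34 members were higher and 0 lower in CGP, beside 0.282% of all tested genes in either direction, 0.144% higher and 0.138% lower. At an unadjusted p under 0.05 the members numbered 5, of which 4 were lower and 1 was higher, in a table where 10.8% of all genes reached it, 5.58% lower and 5.26% higher. A linear model with unmoderated variances called 0 members and a trended, robust eBayes called 1, Pdia6. The adjusted p of the members ran between 0.183 and 0.987.

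The differences were small and their intervals narrow. Signals are log2 values, so that a step of 1 stands for a doubling, and CGP minus CON lay between -0.17 for Pdia6 and 0.11 for Eif2ak3, at most 1.12-fold either way. The standard errors were 0.033 to 0.077, and the SD of 3 arrays was at most 0.12 in any member and group. No 95% interval of a member reached a change of 1.4-fold (0.49 on the log2 scale), and the bound farthest from 0 was -0.26, that of Hspe1, which is 1.20-fold. These intervals cover the spread between arrays and not that between mice.

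**Figure D1:**
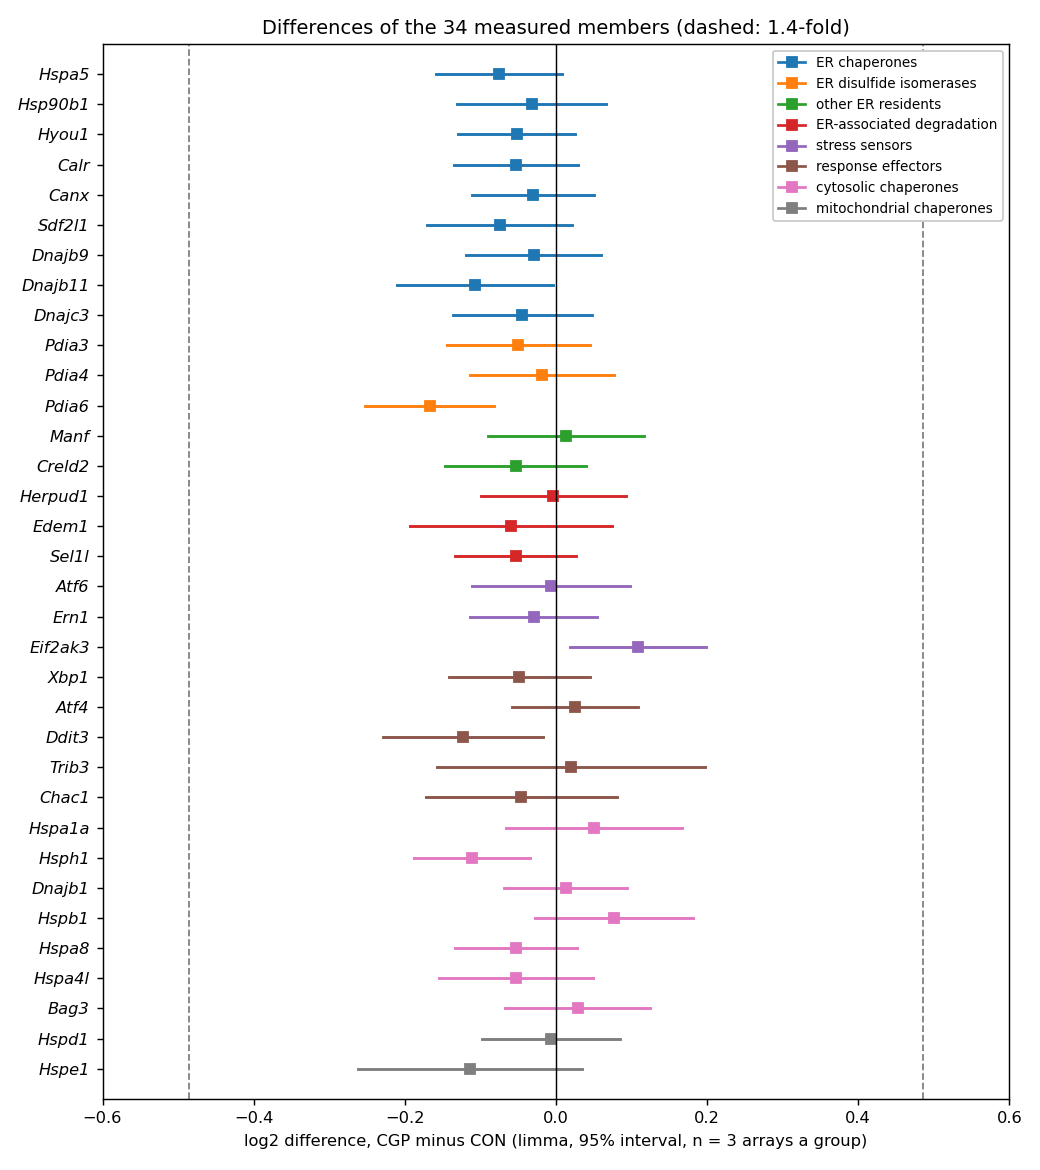
Differences of the 34 measured members. The horizontal axis is the log2 difference CGP minus CON, squares are the estimates and bars the 95% intervals from limma (3 arrays a group), colours give the role of the gene and dashed lines mark 1.4-fold. Every bar lies between the dashed lines, and the estimates run between -0.17 for Pdia6 and 0.11 for Eif2ak3.

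More members lay below CON than above it. The difference was below 0 in 26 of the 34 members (76.5%), against 51.4% of all tested genes, and the median was -0.045, against -0.0020 over all genes. Among genes with a mean signal of at least 7, which all 34 members had, 54% lay below 0, with a median of -0.0057. These counts of direction are a description and were not tested. With the arrays centred on their medians 23 of 34 members lay below 0, against 43.5% of all genes, and with a second quantile normalization 23 of 34, against 49.2%. All CGP arrays lay below all CON arrays in 9 members, where 9.63% of all genes did so, and above them in 1 member, Eif2ak3, where 7.69% of all genes did so. In the other 24 members the arrays of the groups overlapped. The mean signal over the 34 members was 9.90, 9.89 and 9.88 on the CGP arrays and 9.93, 9.92 and 9.92 on the CON arrays. In pooled tissue, fewer cells of a type and less RNA per cell cannot be told apart.

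**Figure D2:**
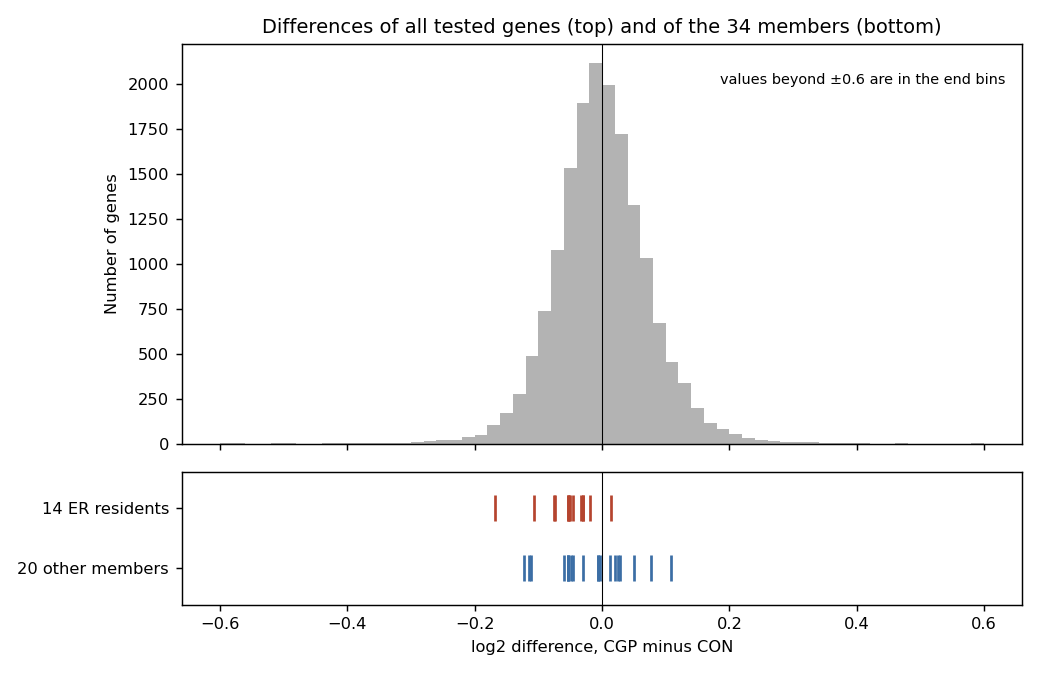
Differences of all 16663 tested genes and of the members. The horizontal axis is the log2 difference CGP minus CON, the upper panel counts genes in bins of 0.02, and each tick of the lower panel is a member. The ticks lie inside the main body of the distribution, 13 of the 14 ER residents to the left of 0.

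The 14 ER residents lay mostly on one side of 0. They are the 9 ER chaperones and their partners, the 3 protein disulfide isomerases, Manf and Creld2. Of these, 13 had a difference below 0, with a median of -0.051. The share below 0 was 51.4% of all genes and 54% of those with a mean signal of at least 7. All CGP arrays lay below all CON arrays in 5 of the 14, where 9.63% of all genes did so, and none passed the test in limma. Their mean signal was 10.30, 10.28 and 10.26 on the CGP arrays and 10.33, 10.34 and 10.33 on the CON arrays, so that every CGP array lay below every CON array. Over the alternatives tried, 12 to 14 of the 14 lay below 0. Their median was nearer to 0 after rescaling, -0.039 with the arrays centred on their medians and -0.033 with a second quantile normalization.

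Hspa5 encodes the Hsp70 chaperone of the ER lumen, which binds nascent and misfolded chains and holds the stress sensors inactive. Its signals were 11.33, 11.27 and 11.28 on the CGP arrays and 11.38, 11.34 and 11.38 on the CON arrays. The arrays did not overlap, but the lowest CON array and the highest CGP array lay close together. The difference was -0.076 (standard error 0.036, 95% interval -0.16 to 0.0074, adjusted p = 0.497 from limma).

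Dnajb11 encodes a J-domain partner of Hspa5. It had signals of 9.03, 8.99 and 8.90 on the CGP arrays and 9.05, 9.12 and 9.07 on the CON arrays. The groups did not overlap, with CGP replicate 3 the lowest, and CGP minus CON was -0.11 (limma: standard error 0.045, adjusted p = 0.439). Hyou1, whose product releases nucleotide from Hspa5, had 10.21, 10.25 and 10.22 on the CGP arrays and 10.29, 10.27 and 10.28 on the CON arrays. Its difference was -0.052 (adjusted p = 0.611 from limma), with the CGP arrays all below the CON arrays. Calreticulin (Calr), a lectin chaperone that binds calcium, had 11.96, 11.97 and 11.97 on the CGP arrays and 12.02, 11.98 and 12.05 on the CON arrays. The CGP arrays lay close together just below the lowest CON array, and the difference was -0.053 (adjusted p = 0.622 from limma).

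The other ER chaperones had overlapping arrays. Canx, the membrane-bound relative of Calr, averaged 12.71 ± 0.028 in CGP and 12.74 ± 0.016 in CON (SD, n = 3 each). Hsp90b1, the Hsp90 of the ER, averaged 10.24 ± 0.058 in CGP and 10.27 ± 0.036 in CON. Their differences were -0.031 and -0.032, each smaller than its standard error of 0.035 and 0.043. Sdf2l1, which acts together with Dnajb11, differed by -0.074 (standard error 0.042). Dnajb9 and Dnajc3, which encode further J-domain partners of Hspa5, differed by -0.030 and -0.045.

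Pdia6, a protein disulfide isomerase that also acts on the sensor made from Ern1, had the largest difference of the members. Its signals were 9.42, 9.45 and 9.43 on the CGP arrays and 9.64, 9.61 and 9.56 on the CON arrays. The arrays lay clearly apart, with a gap of more than the SD of either group. The difference was -0.17 (standard error 0.037, 95% interval -0.25 to -0.082), a signal lower by 1.12-fold, at an unadjusted p of 0.0020 and an adjusted p of 0.183 from limma. Over the alternatives the adjusted p of Pdia6 was below 0.05 only with the trended, robust eBayes (0.0317), where 249 probesets passed in all, against 51.

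The 250 bases before the start of Pdia6 (chr12:17266339-17266588, plus strand) are shown beside this value, with the ER stress element in capitals. They were 70.4% G and C, against 62.4% in those of Hspa5.
Pdia6: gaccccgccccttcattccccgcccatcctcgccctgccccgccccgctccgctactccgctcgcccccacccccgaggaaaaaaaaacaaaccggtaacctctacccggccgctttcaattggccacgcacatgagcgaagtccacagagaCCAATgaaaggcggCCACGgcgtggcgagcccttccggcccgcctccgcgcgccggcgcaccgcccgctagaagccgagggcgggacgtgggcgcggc
The other isomerase genes had overlapping arrays. Pdia3, which acts with Calr and Canx on glycoproteins, averaged 11.23 ± 0.037 in CGP and 11.28 ± 0.050 in CON, and Pdia4 averaged 9.68 ± 0.056 in CGP and 9.70 ± 0.028 in CON (SD, n = 3 each). Creld2 averaged 9.50 ± 0.021 in CGP and 9.56 ± 0.055 in CON. Manf, a secreted neurotrophic factor retained in the ER, was the 1 ER resident with a difference above 0, 0.014, at 9.27 ± 0.046 in CGP and 9.26 ± 0.060 in CON.

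The medians of the ER residents with and without the first form of the stress element lay close together. The 7 with this form had a median of -0.053 and all 7 lay below 0. The 5 with a window but without this form had a median of -0.050 and all 5 lay below 0. These 5 include Dnajb11, the lowest of them at -0.11, which carries the second form. Hyou1 and Manf had no window and are in neither set, and Manf was the 1 ER resident above 0, at 0.014. Among genes outside the list, 11 with the first form were tested, and 8 of them were higher and 3 lower in CGP, with a median of 0.048. None of these 11 passed the test in limma. The 3 members with the heat shock element lay below 0, at -0.11 for Hspe1, -0.11 for Hsph1 and -0.0061 for Hspd1, while the 66 other tested genes with it had a median of -0.014.

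Of the genes of ER-associated degradation, Sel1l was the member whose arrays lay apart. Its product is the scaffold of the membrane ligase complex. It had 10.28, 10.28 and 10.23 on the CGP arrays and 10.30, 10.31 and 10.34 on the CON arrays. The difference was -0.054 (adjusted p = 0.613 from limma). Herpud1, a membrane protein of the same machinery, averaged 10.61 ± 0.029 in CGP and 10.61 ± 0.056 in CON (SD, n = 3 each). Edem1, which hands misfolded glycoproteins to degradation, averaged 8.98 ± 0.055 in CGP and 9.04 ± 0.10 in CON.

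The sensors lay on both sides of 0. Eif2ak3, the kinase that slows translation by phosphorylating an initiation factor, had the highest difference of all members. Its signals were 8.73, 8.66 and 8.64 on the CGP arrays and 8.60, 8.56 and 8.55 on the CON arrays, with no overlap. The difference was 0.11 (standard error 0.039, 95% interval 0.019 to 0.20, adjusted p = 0.396 from limma). Atf6 averaged 9.01 ± 0.070 in CGP and 9.02 ± 0.034 in CON, and Ern1 averaged 8.59 ± 0.0069 in CGP and 8.62 ± 0.040 in CON (SD, n = 3 each).

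Among the effectors, Ddit3 had the lowest difference. It encodes the pro-apoptotic factor CHOP, which is induced through Atf4 in prolonged stress. Its signals were 8.66, 8.62 and 8.65 on the CGP arrays and 8.81, 8.82 and 8.68 on the CON arrays. The CGP arrays lay together, and CON replicate 3 lay nearer to them than to the other CON arrays. The difference was -0.12 (standard error 0.046, 95% interval -0.23 to -0.017, adjusted p = 0.411 from limma), and it was -0.098 to -0.17 with 1 array left out.

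Atf4 itself had overlapping arrays, 9.26, 9.27 and 9.20 in CGP and 9.22, 9.20 and 9.23 in CON. Its difference was 0.025 (95% interval -0.059 to 0.11, adjusted p = 0.834 from limma). Xbp1 had 10.82, 10.90 and 10.80 on the CGP arrays and 10.89, 10.86 and 10.92 on the CON arrays, again overlapping, with a difference of -0.049 (95% interval -0.14 to 0.045, adjusted p = 0.695 from limma). The single value per array does not part spliced from unspliced Xbp1 mRNA. Trib3, a pseudokinase induced through Atf4 and Ddit3, had the widest spread of the members, at 7.46 ± 0.12 in CGP and 7.44 ± 0.12 in CON (SD, n = 3 each). Chac1, which breaks down glutathione, averaged 9.09 ± 0.031 in CGP and 9.14 ± 0.10 in CON.

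**Figure D3:**
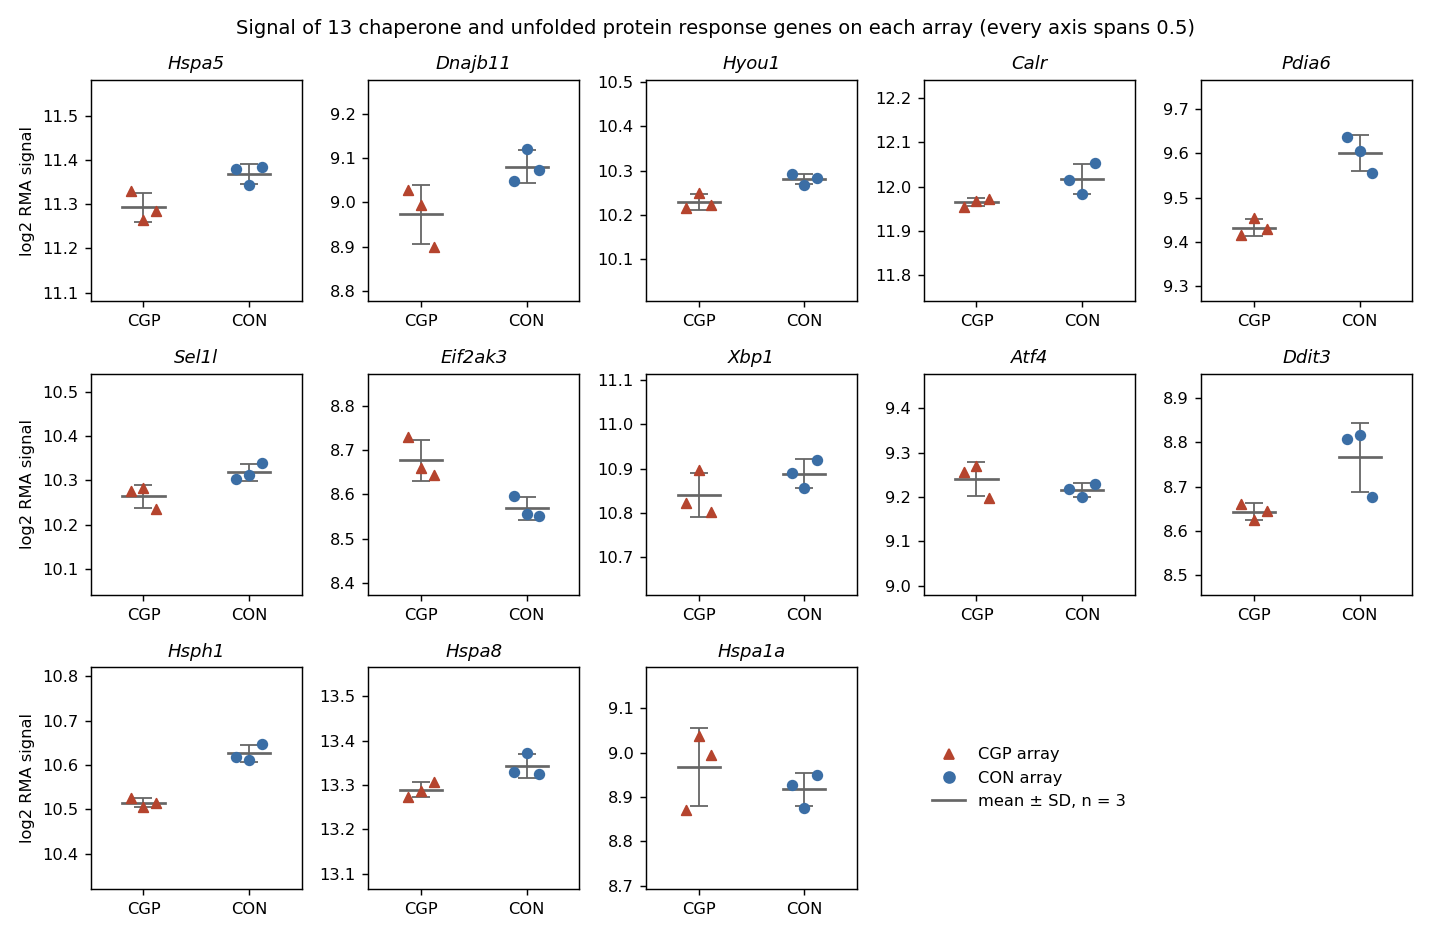
Signals of 13 members on each array. The vertical axes give the log2 RMA signal and each spans 0.5, triangles are CGP arrays (left) and circles CON arrays (right), and bars are mean ± SD of 3 arrays. The arrays of the groups lie farthest apart for Pdia6, at 9.43 in CGP and 9.60 in CON, Eif2ak3 is the 1 gene with every CGP array above every CON array, and the groups overlap for Xbp1, Atf4 and Hspa1a.

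The cytosolic chaperones lay on both sides of 0, 3 below and 4 above, with a median of 0.013 over the 7. Hsph1 is an Hsp110 that exchanges nucleotide on Hsp70. It had 10.53, 10.51 and 10.51 on the CGP arrays and 10.62, 10.61 and 10.65 on the CON arrays. The arrays lay apart by several times the SD of either group, which was 0.010 in CGP and 0.019 in CON. The difference was -0.11 (standard error 0.033, 95% interval -0.19 to -0.034, adjusted p = 0.322 from limma), which is 1.08-fold.

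Hspa8, the constitutive Hsp70 of the cytosol, had 13.27, 13.29 and 13.31 on the CGP arrays and 13.33, 13.37 and 13.32 on the CON arrays. All CGP arrays lay below the CON arrays, the nearest pair close together, and the difference was -0.053 (adjusted p = 0.618 from limma). Hspa1a, the inducible Hsp70, had 8.871, 9.038 and 8.995 on the CGP arrays and 8.928, 8.876 and 8.949 on the CON arrays. CGP replicate 1 was the lowest of all 6 arrays and CGP replicate 2 the highest, and the difference was 0.050 (95% interval -0.066 to 0.17, adjusted p = 0.750 from limma). This value is uncertain as one of Hspa1a alone, since Hspa1b is nearly identical in sequence.

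The other cytosolic members also had overlapping arrays. Dnajb1, the J-domain partner of Hsp70, averaged 9.61 ± 0.031 in CGP and 9.59 ± 0.017 in CON, a difference of 0.013. Hspb1, a small heat shock protein, averaged 9.43 ± 0.035 in CGP and 9.35 ± 0.070 in CON, a difference of 0.077. Bag3, which links Hsp70 to autophagy, averaged 9.09 ± 0.020 in CGP and 9.06 ± 0.060 in CON, and Hspa4l, a relative of Hsph1, averaged 9.39 ± 0.042 in CGP and 9.44 ± 0.061 in CON (SD, n = 3 each). The mitochondrial pair had differences of -0.0061 for Hspd1 and -0.11 for Hspe1 (standard errors 0.040 and 0.064).

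For some members the value depended on the probeset. Of the 34 members, 6 had more than 1 probeset of their own, 13 probesets in all. The 2 probesets of Dnajc3 held the same values on every array, so that they are 1 measurement. The 3 probesets of Hspa8 gave -0.053, -0.056 and -0.078, the 2 of Hspb1 gave 0.077 and 0.084, and the 2 of Hspe1 gave -0.11 and -0.15. For Hspd1 the probeset taken gave -0.0061 and the dimmer one -0.077, and for Pdia4 the probeset taken gave -0.018 and the other, dim at a mean of 6.63, gave 0.10. None of the 13 passed the test (adjusted p of 0.422 to 0.972 in limma).

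The rest of the pathway was given by 5 further lists, of 149 symbols with 143 genes measured. None of the 143 passed the test in limma, beside 0.282% of all genes. At an unadjusted p under 0.05 they numbered 25, of which 16 were lower and 9 higher, where 10.8% of all genes reached it, 5.58% lower and 5.26% higher. Unmoderated variances gave 0 calls and the trended, robust eBayes 2, Psat1 and Slc7a11, both lower in CGP. Of the 31 other ER folding genes, 24 lay below 0 (77.4%), with a median of -0.044. The share was 51.4% of all genes and 54% of those with a mean signal of at least 7. The largest differences were those of Hspa13 (-0.14), an Hsp70 relative, Clgn (-0.13), a relative of calnexin, and Ganab (-0.12), a subunit of glucosidase II. The 20 other genes of ER-associated degradation had a median of -0.0059. Their ligase gene Syvn1, the partner of Sel1l, was at 0.11, Derl3 at 0.094 and Ubxn4 at -0.084.

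The 29 other genes of stress signalling had a median of -0.0082. The largest differences were those of Slc7a11, the cystine transporter gene induced through Atf4, at 10.24 ± 0.055 in CGP and 10.45 ± 0.035 in CON (SD, n = 3 each; difference -0.21, adjusted p = 0.132 from limma), and Psat1, an enzyme of serine synthesis, at -0.17. Map3k5, a stress kinase, was at -0.15. The 49 other heat shock and chaperone genes, mostly cytosolic, had a median of -0.036, with 33 below 0 (67.3%). The share was 51.4% of all genes and 54% of those with a mean signal of at least 7. Among them the heat shock factor gene Hsf2 was at -0.17 (adjusted p = 0.325 from limma), Bag1 at -0.14 and Dnajb6 at 0.20, the last with a mean of 6.85. The 14 other genes of mitochondrial quality control had a median of -0.017, with Htra2 at 0.091, Spg7 at 0.062 and Hspa9 at -0.055.

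**Figure D4:**
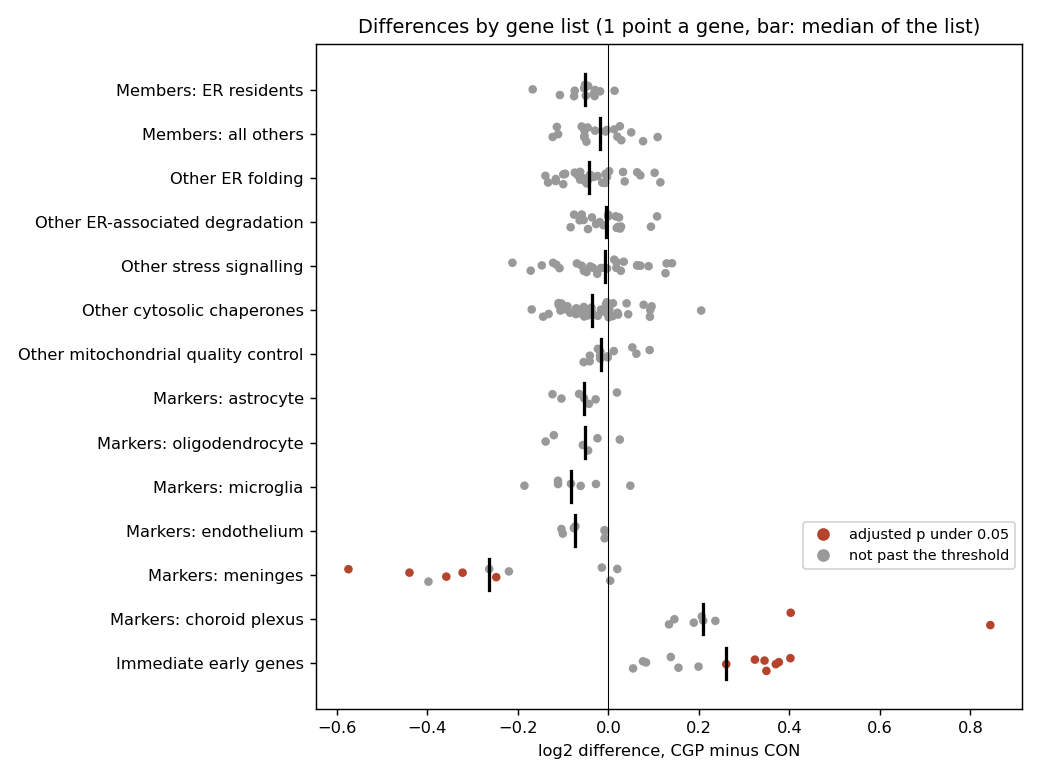
Differences by gene list. The horizontal axis is the log2 difference CGP minus CON, each point is a gene, red points had an adjusted p under 0.05 in limma, and black bars are list medians. The members and the 5 other pathway lists have no red point, with a median of -0.051 for the ER residents, while meningeal, choroid plexus and immediate early genes have medians of -0.26, 0.21 and 0.26.

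Markers of some other tissues differed between the same arrays. Of the 15 measured hypothalamic markers, none passed the test in limma, and Hcrt, Oxt and Pmch had mean signals of 12.52, 12.19 and 11.94. In 10 of the 15 the difference was below 0, with a median of -0.032. Of 7 neuronal markers 4 lay below 0, with a median of -0.021, and none passed the test. The treatment notes speak of adrenal glands where the tissue and extraction labels give hypothalamus, and the 6 of 9 adrenal markers above the filter had means between 6.06 and 7.03. Meningeal genes had a mean signal of 8.38 to 8.41 on the CGP arrays and 8.65 to 8.66 on the CON arrays, with 5 of 11 lower past the test. Choroid plexus genes had 8.30 to 8.34 in CGP and at most 8.03 in CON, with 2 of 8 higher past the test. Of 13 immediate early genes 7, of 8 pituitary genes 3 and of 8 thalamic genes 2 were higher past the test. Pituitary genes had a mean signal of 10.12 to 10.15 on the CGP arrays and 9.73 to 9.78 on the CON arrays. In 7 of the 8 the difference was above 0, with Pomc at 1.56, and Gh and Prl had mean signals of 13.46 and 13.27. The part of pituitary RNA in the values of the members was not tested. Markers of endothelium (7 of 7), microglia (6 of 7), astrocytes (6 of 7) and oligodendrocytes (5 of 6) were mostly below CON, with medians of -0.073, -0.083, -0.054 and -0.051, and none passed the test. These medians are of the same size as the -0.051 of the ER residents, and their part in that value was not tested. By principal components CGP replicate 1 stood apart from the other arrays on the second component. Without it the median of the members was -0.044 and 0 members passed the test.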

How the data were processed

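Hypothalamic RNA was measured on 6 Affymetrix arrays, 3 of the CGP group and 3 of the CON group, as the labels assign them. The authors deposited 1 table of log2 signals for 28471 probesets, and their processing notes name RMA and Partek. RMA corrects background, normalizes by quantiles, takes log2 and summarizes probes by median polish, which holds the array medians together (8.19 to 8.21 here) and compresses changes of dim probesets. The platform annotation at GEO gave the gene names, 1 gene for 18690 probesets, several for 1163 and none listed for 8618. Those with 1 gene and a mean of at least 6 were tested, 18239 probesets of 16663 genes. The groups were tested with lmFit and eBayes (limma 3.58.1, R 4.3.3) without covariates, with Benjamini-Hochberg adjustment over all tested probesets and a threshold of 0.05. The steps were tested on simulated data.

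The members and lists were chosen with earlier results of these data known. Signals on every array are given for members past the test, for the up to 12 largest differences among members whose groups do not overlap, and for Hspa5, Xbp1, Atf4, Ddit3, Hspa1a and Hspa8. Of the other lists, the 3 genes with the largest difference are named. No 2 arrays held the same values, and arrays correlated at 0.997 to 0.998 within groups and 0.996 to 0.998 between groups. Scan dates and detection p-values were not used here. The number of arrays limits the precision. Promoter windows came from RefSeq, assembly GRCm38.p6, and probe positions were not used. The alternatives changed the filter, the probesets tested, the scaling, the variance model, array weights, the pairing, the arrays, the probeset taken and the call rule.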

Additional observations from a re-analysis of the deposited data

How the results depend on the processing

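Over 17 alternatives, 0 members passed the test in 16 and 1 (Pdia6) with a trended, robust eBayes, which also called 2 of the other pathway genes (Psat1 and Slc7a11). All 13 named genes kept their direction in every alternative, which was in large part fixed in advance. Where the groups do not overlap, leaving out 1 array cannot turn the direction. The alternatives of filter, probesets tested, variance model, replicate block and call rule left these differences as they were. The median difference of the members was -0.033 with the arrays centred on their medians, -0.031 with a second quantile normalization, and -0.044 to -0.033 with 1 array left out. Of the tested probesets 51 were called, 28 higher and 23 lower, against 37 higher and 18 lower with the arrays centred on their medians. They became 81 with a mean signal of at least 7, 4 with all probesets tested, 249 with the trended, robust eBayes, 6 with unmoderated variances, 77 with array weights, and 9 where a change of 1.4-fold was also asked for. Leaving out single arrays gave 6 to 10, with fewer samples in the fit by construction. For the other counts the cause was not tested. Same-numbered arrays did not deviate together (correlations of 0.078, -0.18 and 0.11), and no pairing by number was seen. With 3 arrays a group these values cannot decide whether the arrays were paired. With the replicate number as a block, 0 members, 0 other pathway genes and 6 probesets were called, and the median of the members was -0.045. Among the CGP arrays 1 of 3, and among the CON arrays 1 of 3, was closest to the same number in the other group. Changes of probesets near a signal of 6 may be compressed by background.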
